A study of Rattus norvegicus with 2 samples.

Results

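Among the heat shock proteins and J-domain cochaperones of rat bone mesenchymal stem cells (BMSCs), the stress-inducible HSP70 genes Hspa1a and Hspa1b and the J-domain gene Dnajb1 were lower on the icariin array than on the DMSO array, by 3.79-fold, 3.71-fold and 2.42-fold. The other 9 of the 12 genes listed here as classic heat-inducible, among them Hsp90aa1, Hsph1, Hspb1, Hspd1 and Hspe1, differed by less than 1.5-fold. The 9 include Hspa8, which is also made constitutively. A difference under 1.5-fold was also seen for 6977 of the 9276 genes above background, defined below, on both arrays. The family covers 78 genes, measured by 83 sequences, of 24241 genes and 26419 sequences on the array. Members were chosen by gene symbol, old or current, with the prefixes Hspa, Hspb, Hspd, Hspe, Hsph, Hsp90a and Dnaj, together with Hsf1, Hsf2, Bag3 and Stip1. Hspa5, Hspbap1, Dnajb9, Dnajb11, Dnajc3 and Dnajc10 were left out by that rule. The family itself was proposed from the icariin minus DMSO differences of these same arrays, so those differences are given as a description and no test was made of them.

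BMSCs of Sprague-Dawley rats aged 4 weeks were treated for 24 h with the solvent DMSO or with icariin, a flavonol glycoside of Epimedium, at 20 μM. Age, dose and time come from the methods, and nothing in the labels names a genotype. The donors are female by the labels and male by the methods. There was 1 array per condition. Nothing here has a replicate check, and no p-value or error across cultures can be given.

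Molecular chaperones of the HSP70 class bind unfolded stretches of proteins and release them in a cycle driven by ATP. J-domain proteins, the DNAJ families, deliver clients to HSP70 and stimulate its ATPase, nucleotide exchange factors such as HSP110 and the BAG proteins reset it, and HSP90 takes over part of the clients. Under heat or other proteotoxic stress the transcription factor HSF1 binds repeats of the unit GAA in heat shock promoters and induces Hspa1a, Hspa1b, Dnajb1 and other chaperones, while Hspa8 and Hsp90ab1 are made in most cells at all times.

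The label of the family is cytosolic, but the symbol rule also took genes whose products lie elsewhere. Mitochondria hold the products of 8 members (Hspa9, Hspd1, Hspe1, Dnaja3, Dnajc11, Dnajc15, Dnajc19 and Dnajc30), and membranes or lumen of the endoplasmic reticulum hold those of 6 (Hspa13, Dnajb12, Dnajb14, Dnajc14, Dnajc16 and Dnajc18). A further 9 members are pseudogenes or copies named after a member, and Tmem132a entered by its old name only, Hspa5bp1, and read 744 with DMSO and 884 with icariin. The stromal identity of the cells was read from 9 markers, which were above background on both arrays with a summed intensity of 96087 and 105326. Of 10 macrophage markers 6 were at least 2-fold higher on the icariin array, beside 6.52% of all genes. Of the 8 above background on both arrays 5 were, beside 2.96% of all genes above it on both. The summed intensity of the 10 was 5083 with DMSO and 15895 with icariin. The general leukocyte gene Ptprc read 91.9 and 192, with the DMSO value under background, and Cd68 1423 and 5597. The part of these cells in the differences below was not tested, and in bulk RNA fewer cells of a type and less RNA per cell cannot be told apart.

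Background was set by 1428 genes of olfactory and vomeronasal receptors, a class with no known use in BMSCs. Their 95th percentile, called the receptor level, was 148 with DMSO and 168 with icariin. Of the 78 members 50 lay above it on both arrays, 12 on 1 array and 16 on neither. Where only the brighter array lay above it, the ratio is written as "at least", with the dimmer value raised to 168, which is a convention rather than a sure bound. Differences are log2 values, icariin minus DMSO.

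**Figure D1:**
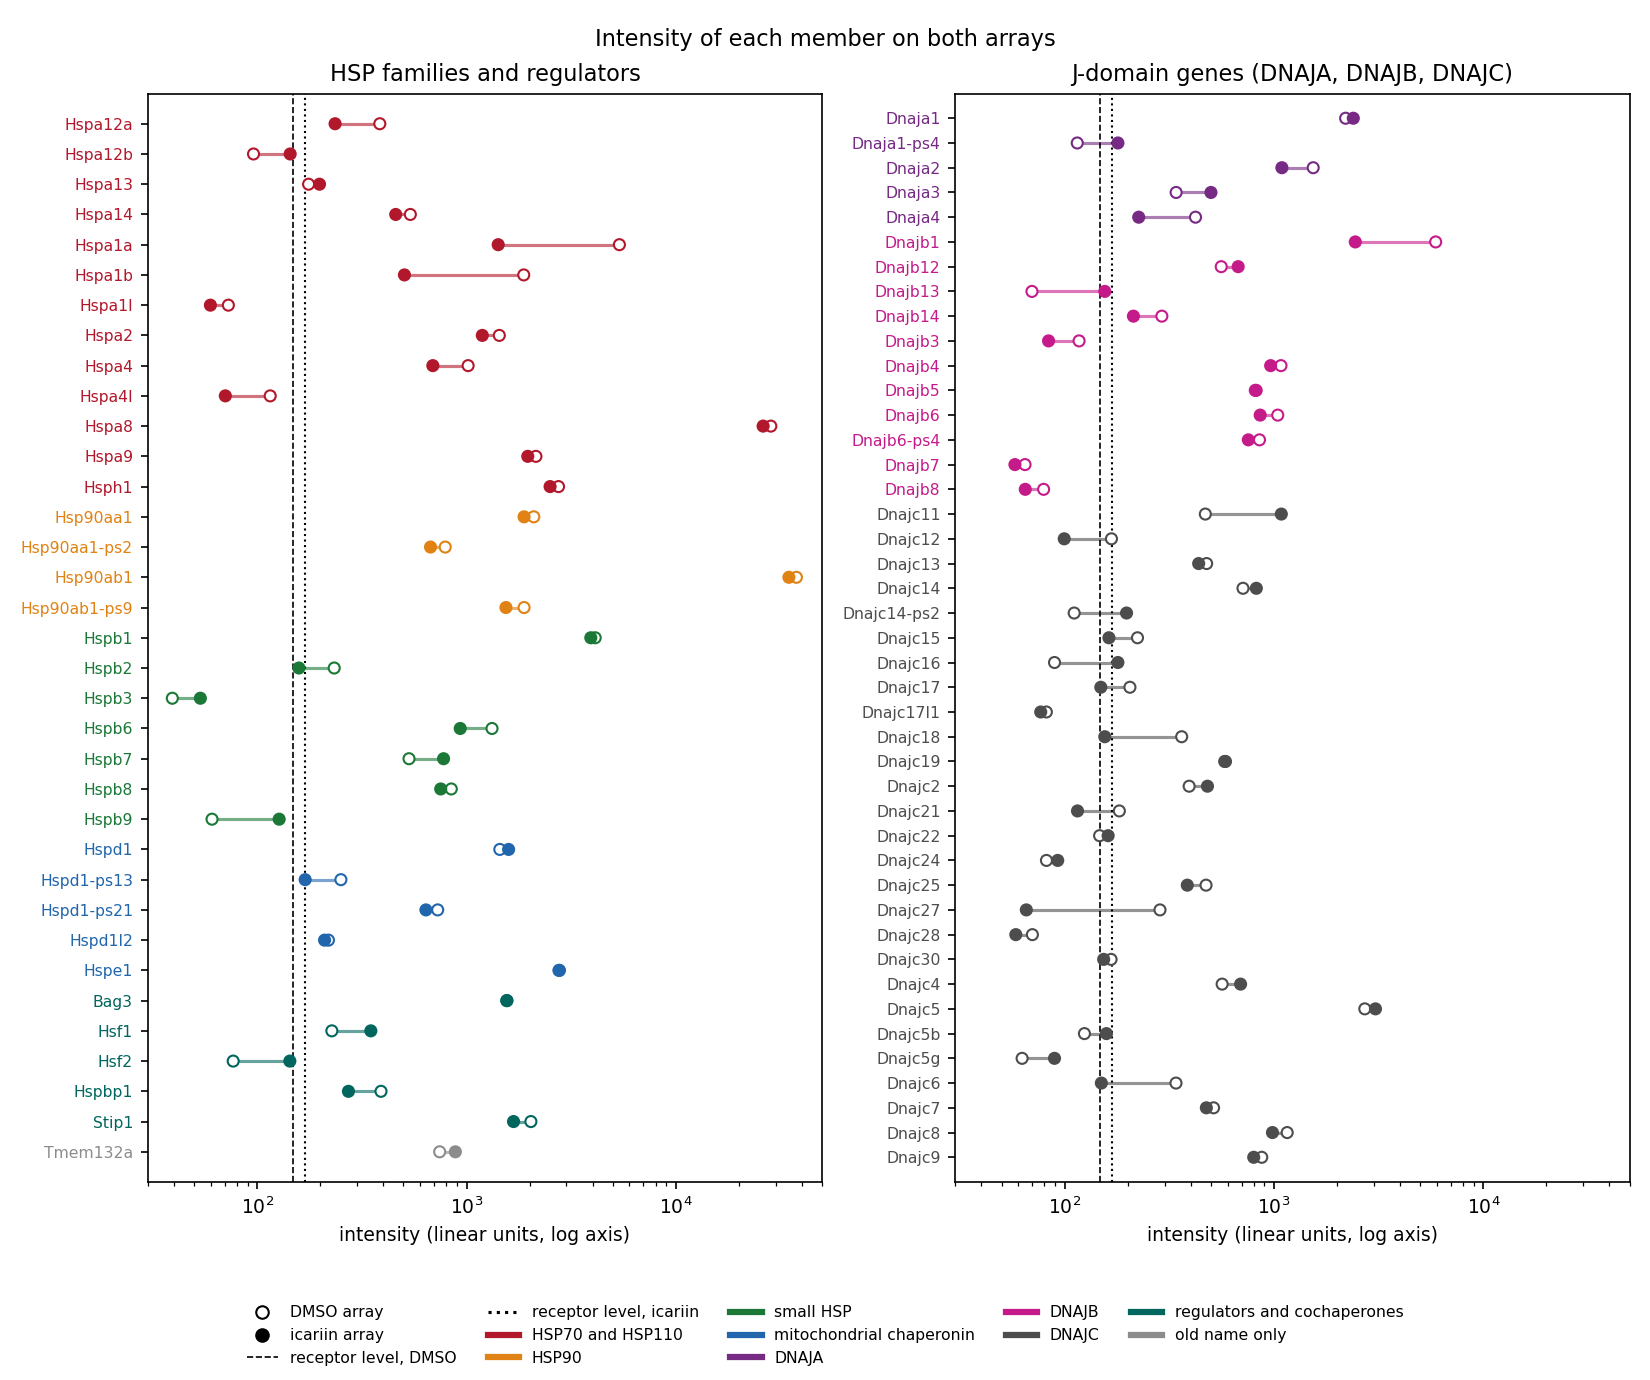
Intensity of each of the 78 members (linear units on a log axis) on the DMSO array (open circles) and the icariin array (filled circles), coloured by family, with the receptor level of each array as vertical lines. The widest gaps to the left among bright members are those of Hspa1a, from 5374 to 1417, Hspa1b, from 1877 to 505, and Dnajb1, from 5915 to 2443.

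Over the 78 members the median log2 difference was -0.13, from -2.12 to 1.21, beside -0.02 over all genes. Of the members, 6 were at least 2-fold lower and 4 at least 2-fold higher, beside 7.00% and 6.52% of all genes. Both counts are close to that background. Counting just the 50 members that exceeded this level on both arrays, a 2-fold lower value was seen for 3 and a 2-fold higher value for 1, beside 4.39% and 2.96% of the 9276 genes that lay above it on both. Of those 50 members 43 differed by less than 1.5-fold, beside 6977 of the 9276 genes. The median of the 50 members was -0.13, beside -0.05 for the 9276 genes. By any amount, 35 of the 50 members were lower and 14 higher, beside 4997 lower and 4272 higher of the 9276 genes. Among the 24 members that reached 1000 on the brighter array, 3 were at least 2-fold lower, beside 4.85% of 3071 genes. Those 3 were Hspa1a, Hspa1b and Dnajb1, and Hspa1a and Hspa1b are near-identical. A further 1 of the 24, Dnajc11, was at least 2-fold higher, and the share of the 3071 genes that were higher was not counted.

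Dim genes scatter more between the arrays than bright ones. Each member was therefore set against all genes of a similar mean level, in steps of 1 log2 unit. Of the 78 members 73 lay between the 5th and the 95th percentile of the difference at their level. Hspa1a, Hspa1b, Dnajb1 and Dnajc27 lay below the 5th percentile and Dnajc11 above the 95th. Hspa1a and Dnajb1 shared a step of 746 genes whose 1st percentile was -1.23, and both were below it. Hspa1b was below the 1st percentile of its 2164 genes, -1.60. These percentiles describe the spread over genes on this pair of arrays and say nothing of the spread between cultures.

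**Figure D2:**
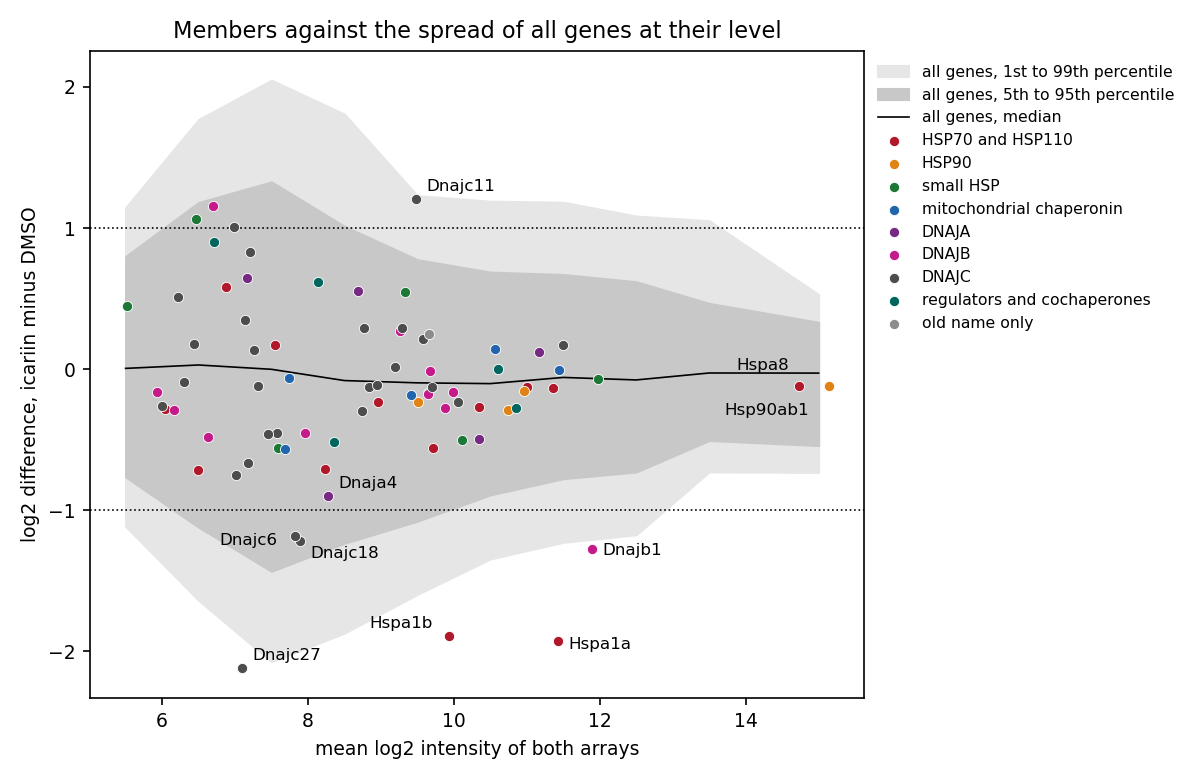
Log2 difference, icariin minus DMSO, against the mean log2 intensity of both arrays. Points are the 78 members by family, grey bands are the central ranges of all genes at each level, and dotted lines mark 2-fold. Hspa1a (-1.92), Hspa1b (-1.89) and Dnajb1 (-1.28) lie under the outer band, whereas Hspa8 and Hsp90ab1 lie near 0.

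Hspa1a encodes the major inducible HSP70. It read 5374 with DMSO and 1417 with icariin, a log2 difference of -1.92. It was the 17th lowest of the 9276 genes that exceeded the receptor level on both arrays. Hspa1b, the neighbouring gene on chromosome 20 with a near-identical coding sequence, read 1877 and 505, a difference of -1.89 and the 22nd lowest. Since the genes are so alike, the probes of each may take up transcript of the other, and the pair cannot be counted as 2 separate observations. Hspa1l, the testis-expressed gene beside them, read 72.8 and 59.8 and stayed under the receptor level on both arrays.

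Dnajb1 encodes HSP40, the J-domain partner of the inducible HSP70. It read 5915 with DMSO and 2443 with icariin, a difference of -1.28 and the 193rd lowest of the 9276 genes. The nearest relatives of Dnajb1 were nearly flat. Dnajb4, which has the same domain order, read 1079 and 963 (-0.16). Dnajb5 read 821 and 813 as the mean of its 2 sequences, 1 of them higher by 0.24 and the other lower by 0.27.

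Promoter windows of the genes are shown as a description of sequence, and whether they bear on the differences was not tested. RefSeq windows of build GRCr8, from 250 bases before to 50 bases after each annotated start, were given for 55 members, Hspa1b not among them. They were searched for the inverted repeats GAANNTTC and TTCNNGAA (2 units) and, made of overlapping pairs of these, GAANNTTCNNGAA and TTCNNGAANNTTC (3 units). The 2-unit repeats read the same on both strands and the 3-unit repeats are each other's complement, so both strands were covered. The 250 bases before the start are printed 5′ to 3′ in the direction of the gene for both bright genes that were lower and have a window, and for 3 flat genes with 3-unit repeats, with every 2-unit repeat in capitals:
Hspa1a (chr20:3859506-3859755, + strand): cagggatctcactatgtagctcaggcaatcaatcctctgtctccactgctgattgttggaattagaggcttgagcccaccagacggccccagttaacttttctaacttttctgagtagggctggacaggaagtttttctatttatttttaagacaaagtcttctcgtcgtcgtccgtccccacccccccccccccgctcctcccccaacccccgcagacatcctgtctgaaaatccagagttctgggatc
Dnajb1 (chr19:41431142-41431391, - strand): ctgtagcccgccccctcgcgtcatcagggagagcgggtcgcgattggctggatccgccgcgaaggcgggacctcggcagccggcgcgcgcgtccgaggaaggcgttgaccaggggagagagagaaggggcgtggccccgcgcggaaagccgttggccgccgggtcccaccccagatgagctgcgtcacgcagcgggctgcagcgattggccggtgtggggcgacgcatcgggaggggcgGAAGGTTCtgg
Hsph1 (chr12:10427118-10427367, + strand): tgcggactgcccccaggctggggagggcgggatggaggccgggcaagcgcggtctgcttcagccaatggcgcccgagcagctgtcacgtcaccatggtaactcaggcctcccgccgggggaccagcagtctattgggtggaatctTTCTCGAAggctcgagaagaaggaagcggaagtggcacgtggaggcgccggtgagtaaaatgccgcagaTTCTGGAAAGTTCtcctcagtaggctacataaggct
Hspa8 (chr8:50080264-50080513, + strand): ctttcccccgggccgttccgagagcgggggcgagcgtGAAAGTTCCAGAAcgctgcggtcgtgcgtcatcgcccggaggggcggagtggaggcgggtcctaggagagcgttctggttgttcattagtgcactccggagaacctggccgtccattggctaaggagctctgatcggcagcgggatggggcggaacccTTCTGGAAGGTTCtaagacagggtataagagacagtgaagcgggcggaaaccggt
Hspe1 (chr9:64084077-64084326, + strand): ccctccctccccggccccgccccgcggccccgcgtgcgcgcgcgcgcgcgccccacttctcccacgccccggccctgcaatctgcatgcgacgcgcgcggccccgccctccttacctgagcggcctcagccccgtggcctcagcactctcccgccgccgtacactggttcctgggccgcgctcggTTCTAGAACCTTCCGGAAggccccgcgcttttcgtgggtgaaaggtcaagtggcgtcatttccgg

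Repeats of 3 units were in the windows of 5 of the 55 members (9.09%), beside 0.798% of all 33469 windows. These were Hspa8, Hsph1, Dnaja1, Hspd1 and Hspe1. Their log2 differences ran from -0.13 to 0.14, so none of the 5 was 2-fold different. Hspd1 and Hspe1, the chaperonin and its co-chaperonin, are divergent neighbours whose windows share 211 of 300 bases, so their repeats are the same ones. Repeats of at least 2 units were in 18 of the 55 windows (32.7%), beside 15.9% of all windows.

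Dnajb1 held 2 repeats of 2 units, from 11 to 4 bases before the start and from 18 to 25 bases after it, and no repeat of 3 units. Dnajc18 and Dnajc27, both lower, held 1 repeat of 2 units each, and Dnajc6, also lower, held none. The window of Hspa1a, the lowest of the bright members, held none, which says only that these letters are not in that window. Repeats outside it, or near another start of the gene, were not searched for. Over the 13 members with repeats of 2 units only, the median log2 difference was -0.28, and over the 37 with none it was -0.12. Every match is a description of the sequence and not of binding, which was not measured.

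**Figure D3:**
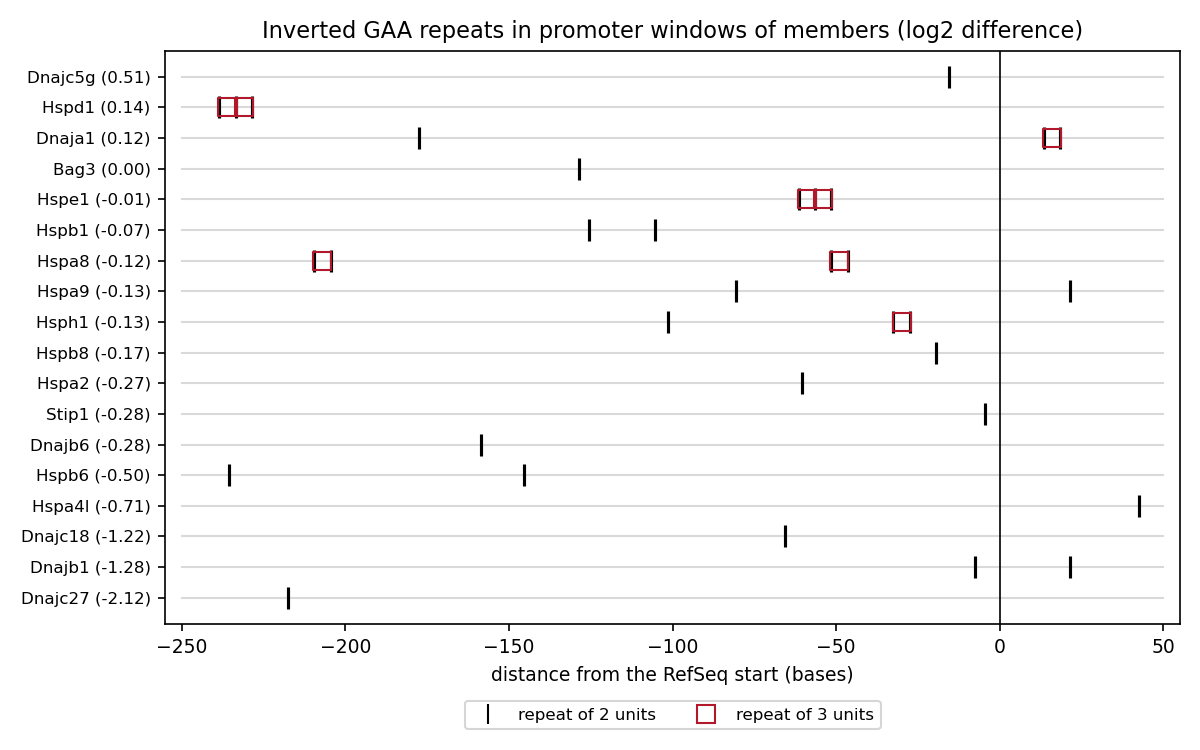
Positions of inverted GAA repeats, in bases from the RefSeq start, in the windows of the 18 members that hold any, ordered by log2 difference (in parentheses). Ticks are repeats of 2 units and squares repeats of 3 units, and all 5 members with squares lie between -0.13 and 0.14.

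The list of classic heat-inducible genes held 12 members, among them the constitutive Hspa8, and all 12 were above the receptor level on both arrays. Of these, 3 were at least 2-fold lower (Hspa1a, Hspa1b and Dnajb1), none was 2-fold higher, and the median was -0.13. For the 9276 genes that exceeded this level on both, the 2-fold shares were 4.39% lower and 2.96% higher. Hspa1a and Hspa1b are near-identical, so they are not separate observations within the 3. Hsph1, the HSP110 that exchanges nucleotide on HSP70, read 2751 with DMSO and 2508 with icariin (-0.13). Hspb1, the small heat shock protein HSP27, read 4117 and 3924 (-0.07). Dnaja1, a J-domain partner of Hspa8, read 2197 and 2390 (0.12). Each of these values on the icariin array was thus within 1.1-fold of its DMSO value. Bag3, which links HSP70 to small heat shock proteins and to autophagy, read 1558 on both arrays. Stip1, the adaptor between HSP70 and HSP90, read 2030 and 1677 (-0.28).

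**Figure D4:**
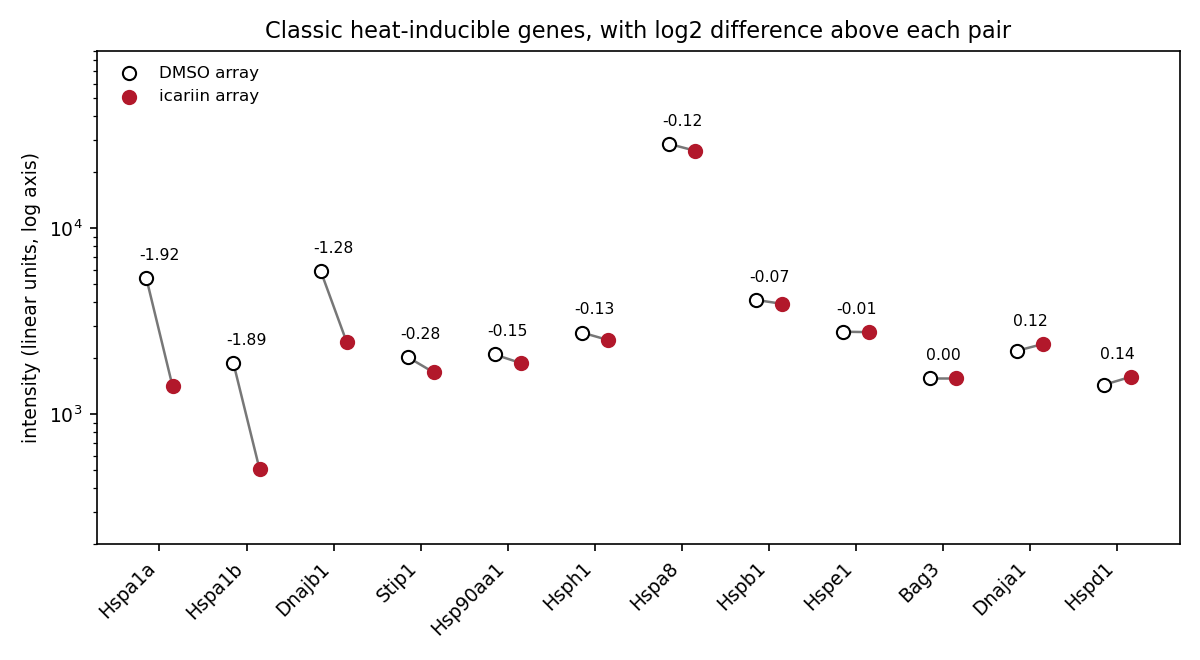
Intensity (linear units on a log axis) of the 12 classic heat-inducible genes on the DMSO array (open circles) and the icariin array (filled circles), with the log2 difference above each pair. Hspa1a, Hspa1b and Dnajb1 stand at the left with differences of -1.92, -1.89 and -1.28, and the other 9 lie between -0.28 and 0.14.

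In the HSP70 and HSP110 family of 13 genes the median was -0.27, with 11 lower and 2 higher by any amount. Over all 24241 genes, 12464 were lower and 11764 higher. In the family, the near-identical Hspa1a and Hspa1b were the 2 at least 2-fold lower, beside 7.00% of all genes. Hspa8, the constitutive HSC70, read 28421 with DMSO and 26109 with icariin (-0.12). Hspa9, the mitochondrial HSP70, read 2146 and 1961 (-0.13). Hspa1a and Hspa1b thus stood apart from the constitutive cytosolic and mitochondrial genes of the family. Hspa4, a relative of HSP110, read 1018 and 690 (-0.56). Hspa12a, a distant member of the family, read 385 and 236 (-0.71). Hspa2, which is known from the testis, was above background here with 1434 and 1189 (-0.27). Hspa14 read 539 and 459, and Hspa13, whose product lies in microsomes, 176 and 198. Hspa12b and Hspa4l stayed under the receptor level on both arrays.

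The HSP90 family was lower by a small amount in 4 of 4 entries, with a median of -0.19. Hsp90ab1, the constitutive HSP90 beta, read 37650 with DMSO and 34668 with icariin (-0.12). Hsp90aa1, the inducible HSP90 alpha, read 2096 and 1883 (-0.15). The inducible and the constitutive gene thus gave nearly the same small difference. The entries Hsp90aa1-ps2 (791 and 673) and Hsp90ab1-ps9 (1884 and 1543) are copies whose probes may read the parent transcripts.

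Of the 7 small heat shock proteins, which hold unfolding proteins in a form that HSP70 can rescue, 4 were lower and 3 higher by any amount, with a median of -0.07 (0.0033 after a loess on level). Hspb6, known from muscle, read 1324 with DMSO and 933 with icariin (-0.50). Hspb7, known from heart, went the other way with 531 and 777 (0.55). Hspb8, the partner of Bag3, read 846 and 753 (-0.17). No small heat shock protein above the receptor level on both arrays differed by 1.5-fold, and neither did 6977 of the 9276 genes above it on both. Hspb2 read 233 and 158, at least 1.39-fold lower. Hspb9 read 60.9 and 127, a 2-fold difference with both values under the receptor level, where no ratio is given, and Hspb3 was under it too.

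The mitochondrial chaperonin, the folding chamber of the matrix, differed little. Hspd1, which forms the chamber, read 1442 with DMSO and 1589 with icariin (0.14). Hspe1, its lid, read 2778 and 2764 (-0.01). The copies Hspd1-ps13, Hspd1-ps21 and Hspd1l2 had differences of -0.57, -0.19 and -0.06. Over the 8 mitochondrial members the median was 0.00, with Dnajc11 at least 2-fold higher.

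**Figure D5:**
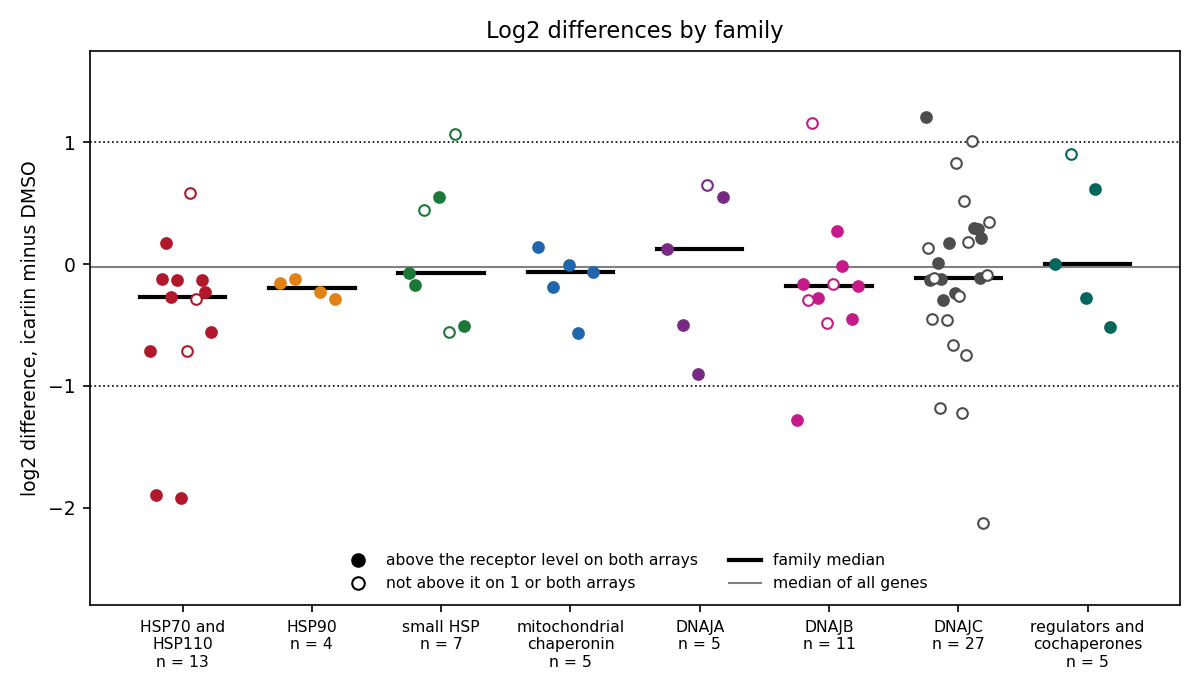
Log2 difference, icariin minus DMSO, of each member by family, with filled points above the receptor level on both arrays and open points not above it on 1 or both. Short black lines are family medians, the grey line is the median of all genes (-0.02) and dotted lines mark 2-fold. Family medians lie between -0.27 and 0.12, and 3 filled points lie below -1.

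The 43 J-domain genes had a median of -0.13, with 4 at least 2-fold lower and 3 at least 2-fold higher, beside 7.00% and 6.52% of all genes. Among the 22 above the receptor level on both arrays, 1 was 2-fold lower and 1 was 2-fold higher, beside 4.39% and 2.96% of 9276 genes. Among the 5 DNAJA entries the median was 0.12, and it was -0.19 without the copy Dnaja1-ps4. Dnaja4 read 421 with DMSO and 226 with icariin (-0.90), which placed it just short of 2-fold. Dnaja2, a cytosolic partner of Hspa8, read 1538 and 1090 (-0.50). Dnaja3, the mitochondrial J-domain protein Tid1, read 341 and 499 (0.55), with differences of 0.35 and 0.76 in its 2 sequences. The DNAJA genes thus lay on both sides of 0.

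Of the 11 DNAJB entries, 9 were lower and 2 higher by any amount, with a median of -0.18. Over all 24241 genes, 12464 were lower and 11764 higher. Dnajb6, which holds back aggregation, read 1041 and 858 (-0.28), and its copy Dnajb6-ps4 852 and 753. The membrane proteins Dnajb12 and Dnajb14 of the endoplasmic reticulum differed in opposite directions, with 559 and 674 (0.27) for Dnajb12 and 291 and 213 (-0.45) for Dnajb14. Dnajb13, known from sperm and cilia, read 69.7 and 155, under the receptor level on both arrays. Dnajb3, Dnajb7 and Dnajb8 were also under it. Of the 8 members known from the testis, Hspa2 alone exceeded the receptor level on any array.

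The 27 DNAJC genes, a mixed class that shares only the J domain, had a median of -0.11 (0.01 among the 11 that exceeded the receptor level on both arrays). They held 3 of the 6 lower and 2 of the 4 higher members, beside 7.00% lower and 6.52% higher of all genes. Dnajc11, a protein of the mitochondrial outer membrane that helps to shape cristae, read 469 with DMSO and 1083 with icariin, 2.31-fold higher (1.21). It was the only member above the receptor level on both arrays that was 2-fold higher. Dnajc16 read 89.4 and 179, at least 1.07-fold higher, and its measured values lay just past 2-fold.

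The lower DNAJC genes were dim on the icariin array. Dnajc27, a Rab-like GTPase with a J domain, read 285 with DMSO and 65.5 with icariin, at least 1.69-fold lower. Dnajc18 read 362 and 155, at least 2.15-fold lower. Dnajc6, the neuronal auxilin that strips clathrin from vesicles with Hspa8, read 340 and 150, at least 2.02-fold lower. For these 3 genes the size of the difference rests on values below the receptor level. The measured differences of Dnajc18 (-1.22) and Dnajc6 (-1.18) lay inside the 5th to 95th percentile range of genes at their level.

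The brighter DNAJC genes were nearly flat. Dnajc5, the cysteine string protein of secretory vesicles, read 2712 and 3050 (0.17). Dnajc8, a protein of the spliceosome, read 1155 and 982 (-0.23). Dnajc9, a histone chaperone, read 873 and 799 (-0.13). Dnajc2, the J-domain protein of the ribosome, read 393 and 481 (0.29), and Dnajc7, which binds both HSP70 and HSP90, 514 and 475 (-0.11). Of the 11 DNAJC genes that exceeded the receptor level on both arrays, 10 differed by less than 1.5-fold, Dnajc11 being the other. So did 6977 of the 9276 genes above it on both.

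The transcription factor Hsf1, the master regulator of the heat shock response, was not lower. It read 227 with DMSO and 349 with icariin (0.62), and its 2 sequences were higher by 0.38 and 0.85. The sequence with 0.38 read 348 and 454. That with 0.85 read 148.7 and 269, and its DMSO value barely exceeded the receptor level of 148.1. Over 736 genes with more than 1 sequence that exceeded the receptor level on both arrays, the median range between sequences of a gene was 0.49, so the 2 sequences of Hsf1 differed about as much as is usual. Hsf2 read 76.8 and 143, under the receptor level on both arrays. Hsbp1, a small protein that binds HSF1 and holds back its trimers, read 1644 and 908 (-0.86). Hspbp1, a nucleotide exchange factor that inhibits HSP70, read 390 and 273 (-0.52). HSF1 is governed mainly at the protein level, which the arrays do not measure.

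Other parts of the chaperone network were read from lists outside the family. Of 8 measured BAG proteins and other nucleotide exchange factors, all were lower by some amount, with a median of -0.34 and none 2-fold different. The 2 exchange factors with the largest differences were Sil1, which serves the endoplasmic reticulum, with 532.3 and 344 (-0.63), and Bag4 with 346 and 252 (-0.45). Of 13 cochaperones of HSP90 and HSP70 none was 2-fold different and the median was -0.09. Chordc1 read 175 and 300 (0.78) and Nudc 1267 and 1824 (0.53). The TRiC chaperonin, which folds actin and tubulin, and its helper prefoldin had a median of -0.09 over 11 genes, with Pfdn1 at 1249 and 630 (-0.99) and Cct6a at 1293 and 2110 (0.71). None of these 3 lists held a gene that was 2-fold different.

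Of 8 further mitochondrial chaperones and proteases 2 were at least 2-fold lower. The protease Htra2 read 1571 with DMSO and 729 with icariin, and the disaggregase Clpb 646 and 307. A list of 6 chaperones of the endoplasmic reticulum outside the family (Hspa5, Hsp90b1, Dnajb9, Dnajb11, Dnajc3 and Dnajc10) had a median of 0.18. Of these, 5 were higher by some amount, and Dnajc3, an inhibitor of eIF2alpha kinases, was 2.03-fold higher with 403 and 819. Of 6 measured genes of oxidative and metal stress, 4 were lower and 2 higher by any amount, with a median of -0.16. Hmox1, heme oxygenase, which is also a heat shock gene in the rat, read 1485 and 4052 and was 2.73-fold higher, opposite in direction to Hspa1a. Of the 5 above the receptor level on both arrays Hmox1 alone was higher, with Gclm (-0.51) and Txnrd1 (-0.47) the lowest. The lens chaperone Cryaa read 83.9 and 646, at least 3.84-fold higher, and its relative Cryab 1643 and 1274 (-0.37).

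The array also held sequences whose description names them as similar to a member but which carry no symbol of the family. The 8 described as like Hspa8 had a median of 0.04, the 7 like Hsp90aa1 -0.17 and the 5 like Hsp90ab1 -0.13, and none of these was 2-fold different. Their medians lay close to the values of the parents. The 5 described as like Hspd1 had a median of 0.50, above the 0.14 of Hspd1 itself. Of 9 described as J-domain proteins 1 was at least 2-fold higher, beside 6.52% of all genes, and the median of the 9 was -0.17. Probes of such copies may take up the parent transcript.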

How the data were processed

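Gene expression of rat BMSCs was measured on 2 NimbleGen arrays with Cy3, 1 for DMSO and 1 for icariin, and groups were taken from the treatment labels. The deposited intensity values had been made by the authors through quantile normalization and RMA, which summarises the probes of a sequence (5 for 99.8% of them) into 1 value on a linear scale. For NimbleScan, which ran both steps, neither a version nor a background correction is given in the sources used here. Quantile normalization would hide a shift of all transcripts in 1 direction. The series-wide value table listed 20045 of these sequences, at values within 0.0288 of those in the array files.

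Sequences were named through RefSeq (GRCr8), 82 of the 83 member sequences by gene identifier, and log2 values were averaged per gene. The fold filter was 2, chosen for this work. No test was possible with 1 array per condition, and the number of arrays limits the precision. Only the arithmetic of the fold counts was checked on simulated data. How reliable the counts are with 1 array per condition was not tested. The members and lists were chosen with earlier results of these data known. Genes named were all members past 2-fold, the 3 largest differences and the 3 brightest of each family, the classic inducible genes and most members with several sequences. For some of the other lists the 2 largest differences were named, but not for all, the macrophage markers among the exceptions. A further selection was made after the values were seen. The compartments were also assigned after the values were seen. Alternatives were the value table, a loess on level (span 0.3), centring, the highest sequence, 64 added, raising to the receptor level, filters on it, its 99th percentile, sequences in place of genes, folds of 1.5 and 3 and, added after the data were seen, leaving out copies. Supplementary sheets with fold changes were not used. Python 3.11.15, numpy 2.4.6, pandas 2.3.3, statsmodels 0.14.6 and matplotlib 3.10.9 were used.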

Additional observations from a re-analysis of the deposited data

How the results depend on the processing

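A value was taken as moved when it changed by more than 0.39 on the log2 scale, the median SD between sequences of a gene over 1931 genes, and a count when it changed by over 1.5 times. The medians of the members and of their families moved by less than that under every alternative. They lay between -0.27 and 0.12, all smaller in size than 0.39. A median could thus vanish or change sign without counting as moved, so this says little about their stability. The count of members at least 2-fold higher, 4, became 1 with 64 added to both values, 1 with values raised to the receptor level, 2 among members above the receptor level on the brighter array, 1 among those above it on both arrays and 1 among those above its 99th percentile on the brighter array. It was 8 at 1.5-fold and 0 at 3-fold. The count at least 2-fold lower, 6, became 3 among members above the receptor level on both arrays, 11 at 1.5-fold and 3 at 3-fold. Over the alternatives run, the log2 difference ranged from -1.92 to -1.84 for Hspa1a, from -1.89 to -1.77 for Hspa1b, from -1.28 to -1.20 for Dnajb1 and from 1.10 to 1.30 for Dnajc11. It ranged from -1.22 to -0.96 for Dnajc18, from -1.18 to -0.92 for Dnajc6 and from -2.15 to -0.76 for Dnajc27, so Dnajc18, Dnajc6 and Dnajc27 fell short of 2-fold under some alternatives. With values raised to the receptor level, Dnajc16 came to 0.09 and Hspb9 and Dnajb13 to 0. None of the members past 2-fold changed direction under these alternatives. Medians close to 0 did change sign. The DNAJA median went from 0.12 to -0.19 among those that exceeded the receptor level on both arrays, among those past its 99th percentile on the brighter array and without copies. The DNAJC median went from -0.11 to 0.01 among those that exceeded the receptor level on both arrays, that of the mitochondrial chaperonin from -0.06 to 0.07 without copies and that of the small heat shock proteins from -0.07 to 0.0033 after the loess. The median of the regulators, 0, ranged from -0.14 to 0.19. No paired analysis was possible because each condition has 1 array. What limits the reading is the number of arrays and, for 28 of the 78 members, a signal not above the receptor level on at least 1 array.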
